A study of Mus musculus with 20 samples.

Results

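The genes of fatty acid and triglyceride synthesis are taken here as 34 genes chosen by their symbols for their place in the pathway, and all 34 were found among the 40440 entries of the count table. They run from the transcription factors of the pathway, through the enzymes that make acetyl-CoA and NADPH, build, lengthen and desaturate the fatty acid chain and activate it, to the enzymes that place it on glycerol. All 34 had enough counts to be tested in every comparison. New fatty acids are built on acetyl-CoA in the cytosol, from glucose above all, and end as triglyceride once acyl chains have been added to a glycerol backbone step by step. Liver exports much of this fat in lipoproteins, while adipose tissue stores it. Many steps have several isozymes encoded by separate genes, and the deposited counts are per gene, so isozyme use is described here and the transcript isoforms of 1 gene, such as the alternative starts of Srebf1 and Mlxipl, are not resolved.

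RNA came from male C57BL/6J mice that were 8 to 9 months old at surgery. The 4 groups were subcutaneous adipose tissue (SAT) after removal of the epididymal visceral adipose tissue (VAT), SAT after a sham operation with an abdominal incision alone, liver after VAT removal, and liver after the sham operation. Each group had 5 libraries, 20 in total, of ribosome-depleted total RNA, and all mice, sham included, ate a high-fat diet after surgery. Nothing in the labels ties the libraries of a group to separate mice in words, so p-values measure the spread between these libraries.

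Total counts ran from 20307159 to 43618452 per library, and the 34 genes held between 2.29% and 5.95% of them. Scd1 alone, which encodes the enzyme that puts the first double bond into stearate and palmitate, held between 1.11% and 3.82%. Levels are given as CPM (counts scaled to a common library size, with TMM factors over all 20 libraries). The summed level of 5 hepatocyte markers lay between 41.6 and 542.5 CPM in SAT and between 57360 and 86252 CPM in liver. Of these markers, Alb reached at most 25.6 CPM in VAT removed SAT and 17.1 CPM in sham SAT, so the larger SAT sums came mostly from the others. The sum of 5 adipocyte markers lay between 4931 and 11010 CPM in SAT and between 27.0 and 223.4 CPM in liver, where the defining marker Adipoq reached at most 0.421 CPM. Some SAT libraries stood apart. A sum of 6 lymphocyte markers was 386.2 and 387.5 CPM in sham SAT libraries 3 and 4 and at most 9.63 CPM in the other SAT libraries, and the adipocyte sum was lowest in the same pair, at 5920 and 4931 CPM. A sum of 5 skeletal muscle markers was 18762 CPM in VAT removed SAT library 2 and 1541 CPM in sham SAT library 2, and at most 781.1 CPM in the other SAT libraries. In whole tissue, fewer cells of a type and less RNA per cell cannot be told apart.

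Most of the genes differed between the tissues, and more of them were lower in SAT than higher. In sham SAT against sham liver, 29 of 34 passed an adjusted p of 0.05 by edgeR's quasi-likelihood test, 9 higher in SAT and 20 lower. Of all 18449 genes tested, 65% passed, 35.3% higher and 29.7% lower. The median log2 difference, SAT minus liver, was -1.05 over the 34 genes and 0.11 over all genes tested. The groups did not overlap for 27 of the 34 genes, 7 higher and 20 lower, against 53.8% of all genes tested, 27.5% higher and 26.3% lower. Counted on total-count CPM, 9 of the 34 genes were higher and 16 lower without overlap. Acaca, Elovl1, Scd1 and Thrsp, lower without overlap on the TMM scale, overlapped there. The share over all genes was not counted on that scale, so the percentages above do not apply to it. Fads2, Fads1, Lpin2, Elovl5 and Elovl6 lay furthest below liver, and Pnpla3, Dgat1, Gpat3 and Scd2 furthest above it.

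**Figure D1:**
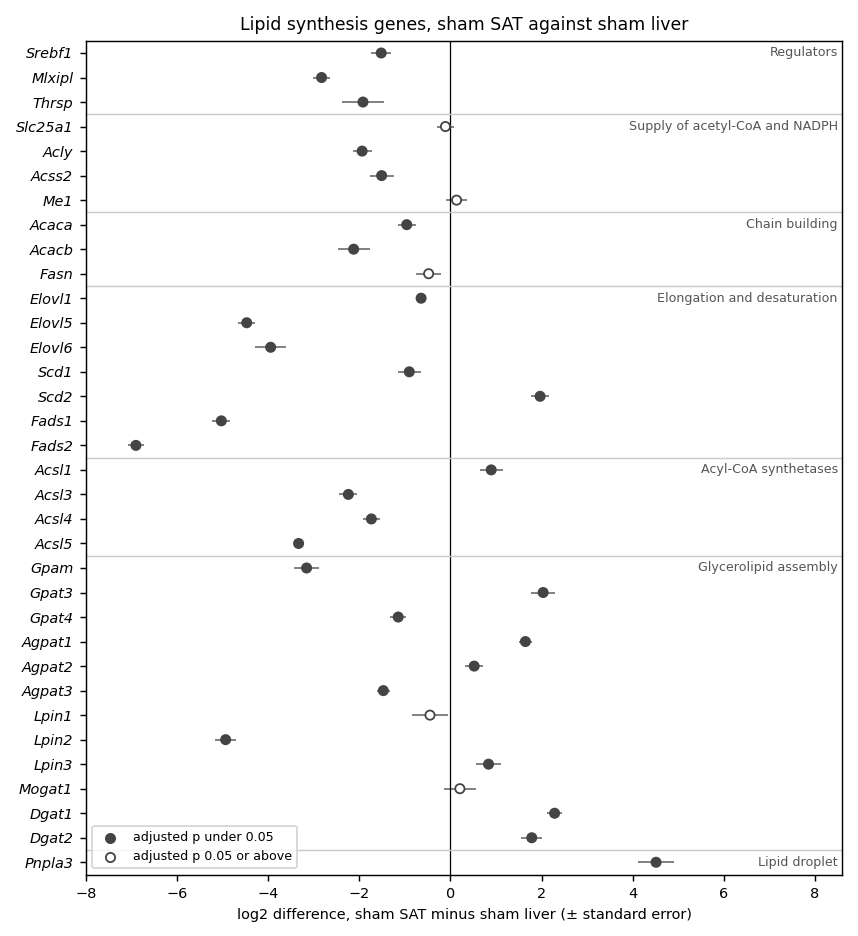
Log2 difference between sham SAT and sham liver (x axis, SAT minus liver, with the standard error from the fit of 5 libraries each) for the 34 genes, grouped by role from top to bottom. Filled points passed an adjusted p of 0.05 and open points did not. Pnpla3 lay highest at 4.51 and Fads2 lowest at -6.90, and Slc25a1, Me1, Fasn, Lpin1 and Mogat1 are the open points.

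The transcription factor genes Srebf1 and Mlxipl were lower in SAT. Srebf1 encodes SREBP1, which carries the insulin signal to lipogenic genes. Its levels in sham SAT libraries 1 to 5 were 393.6, 362.7, 233.4, 229.0 and 342.4 CPM, against 1220, 1097, 781.5, 772.5 and 696.6 CPM in sham liver. The groups did not overlap, and the log2 difference was -1.52 ± 0.22 (standard error, adjusted p 0.000114 by edgeR). Mlxipl encodes ChREBP, the factor that responds to glucose metabolites. It had 74.0, 80.8, 59.8, 48.6 and 92.5 CPM in sham SAT, against 614.6, 488.6, 536.5, 527.3 and 412.7 CPM in sham liver, with a log2 difference of -2.83 ± 0.20. Every SAT library lay far below every liver library. Thrsp, the lipogenic gene known as Spot 14, differed by -1.92 ± 0.46 on the log2 scale.

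Of the 4 genes that supply acetyl-CoA and NADPH, Acly and Acss2 were lower in SAT and Slc25a1 and Me1 did not pass. Acly, ATP citrate lyase, which makes cytosolic acetyl-CoA from citrate, was lower in SAT by 3.83-fold, with 218.8 ± 31.9 CPM in sham SAT and 855.5 ± 230.1 CPM in sham liver (SD, n = 5 each). Acss2, which makes acetyl-CoA from acetate, was 2.85-fold lower. Slc25a1, the citrate carrier of mitochondria, averaged 284.0 ± 71.0 CPM in sham SAT and 313.2 ± 45.4 CPM in sham liver. Me1, malic enzyme and a source of NADPH, averaged 369.2 ± 99.97 CPM in sham SAT and 343.6 ± 77.5 CPM in sham liver. The difference of neither passed (adjusted p 0.624 for Slc25a1 and 0.62 for Me1, by edgeR). Other sources of NADPH, outside the 34 genes, were mixed. Idh1 was lower in SAT by value, with 164.0 ± 40.7 CPM in sham SAT and 379.4 ± 48.7 CPM in sham liver. G6pdx and Pgd were higher. G6pdx averaged 137.8 ± 31.7 CPM in sham SAT and 13.8 ± 2.27 CPM in sham liver, and Pgd 280.6 ± 64.04 CPM in sham SAT and 110.1 ± 14.9 CPM in sham liver (adjusted p 5.66e-08 and 3.75e-05 by edgeR).

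Among the chain-building enzymes, Fasn, fatty acid synthase, did not pass. Its levels were 3360, 4139, 2111, 2357 and 3878 CPM in sham SAT, against 3851, 6136, 5279, 4656 and 2633 CPM in sham liver. The groups overlapped, and the log2 difference was -0.48 ± 0.27 (adjusted p 0.144 by edgeR). The acetyl-CoA carboxylases, which make malonyl-CoA, were both lower in SAT, Acaca by -0.96 ± 0.20 and Acacb by -2.12 ± 0.35 on the log2 scale. Acaca encodes the cytosolic enzyme that feeds Fasn, and Acacb the mitochondrial one, known for restraining fatty acid oxidation.

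Among the genes of elongation and desaturation, 6 of 7 were lower in SAT and Scd2 was higher. Of all genes tested, 29.7% were called lower and 35.3% higher. Fads1 and Fads2 encode the delta-5 and delta-6 desaturases of polyunsaturated fatty acid synthesis and lie near each other on chromosome 19 (GRCm38, 10182888 to 10196877 on the plus strand for Fads1 and 10062765 to 10101746 on the minus strand for Fads2). Fads2 had 10.7, 10.0, 12.4, 10.9 and 10.9 CPM in sham SAT, against 1119, 1480, 1584, 1469 and 1044 CPM in sham liver, which makes it 119.7-fold lower in SAT (log2 difference -6.90 ± 0.18, adjusted p 2.09e-10 by edgeR). All SAT libraries lay within a narrow band. Fads1 was 32.6-fold lower, Elovl5, which lengthens polyunsaturated chains, 22.2-fold lower, and Elovl6, which lengthens palmitate to stearate, 15.4-fold lower. Elovl1, an elongase of very long saturated chains, differed less, by -0.64 ± 0.08 on the log2 scale. On total-count CPM its sham SAT and sham liver groups overlapped. Scd1 had 15608, 15432, 12999, 8196 and 9327 CPM in sham SAT, against 19889, 24167, 18863, 31913 and 22652 CPM in sham liver. The groups did not overlap on this scale, and the log2 difference was -0.90 ± 0.25. In the libraries after VAT removal that difference was -0.65 ± 0.32 and did not pass (adjusted p 0.092 by edgeR). Scd2, its neighbour on chromosome 19, ran the other way and was 3.91-fold higher in SAT, with 425.6 ± 70.6 CPM in sham SAT and 110.9 ± 29.7 CPM in sham liver. How reads shared with Scd1 were counted is not known, so the liver value is uncertain.

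The long-chain acyl-CoA synthetases, which activate fatty acids for further use, split. Acsl1 was 1.86-fold higher in SAT, and Acsl3, Acsl4 and Acsl5 were lower by 4.73-fold, 3.33-fold and 10.1-fold. In glycerolipid assembly, 7 of 12 genes were higher in SAT by value, 6 of them past the threshold (35.3% of all genes tested were called higher), and Gpam, Gpat4, Agpat3 and Lpin2 were called lower (29.7% of all genes tested). Dgat1 and Dgat2, which encode the enzymes that add the last acyl chain to make triglyceride, were 4.87-fold and 3.44-fold higher. Gpat3, which adds the first acyl chain to glycerol 3-phosphate, was 4.09-fold higher, and Agpat1, which adds the second, 3.13-fold higher, while Gpam, the mitochondrial glycerol-3-phosphate acyltransferase, was 8.92-fold lower and Lpin2, a phosphatidate phosphatase, 30.6-fold lower. Agpat2, known for its loss in a human lipodystrophy, had a log2 difference of 0.52 ± 0.20 that passed (adjusted p 0.0365 by edgeR) but was lost in 11 of 22 alternatives (adjusted p 0.000119 to 0.162 over the alternatives), among them without sham SAT library 1, at 0.38. Lpin1 and Mogat1 did not pass. Overlapping genes cover 37.4% of the exon bases of Gpat3 and 12.8% of those of Mogat1, so their counts may hold reads of a neighbour.

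Pnpla3, which encodes a lipid droplet protein whose human variant is known from fatty liver, stood highest above liver. It lies on chromosome 15 (84167837 to 84187236, plus strand). Sham SAT held 334.0, 422.6, 271.1, 257.1 and 483.1 CPM of it, against 6.35, 24.9, 24.0, 13.4 and 10.5 CPM in sham liver. It was 22.8-fold higher in SAT, with a log2 difference of 4.51 ± 0.40 (adjusted p 2.07e-06 by edgeR), and no SAT library came near a liver library.

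Promoter sequences of RefSeq (GRCm38.p6) were found for 28 of the 34 genes, in 39 windows that run from 250 bases before a transcription start. Scd1, Scd2, Dgat1, Dgat2, Fads1 and Gpat4 had none in the table. They were searched on both strands for the letters TCACNCCAC of a sterol regulatory element (SREBP), CACGTG of an E-box (ChREBP, USF), CCAAT (NF-Y) and GGGCGG of a GC box (SP1). The sterol element was in 2 of the 28 genes (7.14%, against 1.22% of 27025 genes) and the E-box in 4 (14.3%, against 6.86%). CCAAT was in 17 (60.7%, against 37.5%) and the GC box in 18 (64.3%, against 35.4%). A gene counted if any of its windows matched. The 27025 genes, expressed here or not, had 32851 windows, fewer per gene than the 28, so the shares are not strictly alike. Below stand the 150 bases before the start for the 2 starts of Mlxipl, whose counts are summed in these data, for the start of Acsl1 that holds a sterol element, for Fasn, which did not pass, and for Pnpla3, which lay furthest above liver. Capitals mark the letters searched for, on either strand.
Mlxipl upstream start, chr5:135089740-135089889, plus strand: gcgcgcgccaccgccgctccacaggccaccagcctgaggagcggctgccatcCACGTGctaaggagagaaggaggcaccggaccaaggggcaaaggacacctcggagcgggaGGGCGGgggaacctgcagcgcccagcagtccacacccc
Mlxipl downstream start, chr5:135106741-135106890, plus strand: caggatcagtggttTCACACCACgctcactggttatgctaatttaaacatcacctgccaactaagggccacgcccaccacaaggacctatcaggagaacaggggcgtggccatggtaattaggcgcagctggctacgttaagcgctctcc
Fasn, chr11:120824548-120824697, minus strand: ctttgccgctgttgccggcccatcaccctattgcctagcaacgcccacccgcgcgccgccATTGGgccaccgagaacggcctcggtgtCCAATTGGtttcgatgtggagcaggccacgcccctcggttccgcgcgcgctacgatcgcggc
Acsl1 downstream start, chr8:46490816-46490965, plus strand: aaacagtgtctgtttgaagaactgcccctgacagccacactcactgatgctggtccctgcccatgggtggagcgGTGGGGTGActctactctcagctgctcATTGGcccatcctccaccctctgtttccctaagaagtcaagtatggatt
Pnpla3, chr15:84167666-84167815, plus strand: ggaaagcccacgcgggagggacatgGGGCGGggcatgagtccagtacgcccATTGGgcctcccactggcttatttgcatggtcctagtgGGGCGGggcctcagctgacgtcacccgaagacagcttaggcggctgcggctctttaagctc
The Mlxipl upstream start holds an E-box at position -98 from the start and a GC box at -38, and the downstream start holds the sterol letters at -136. The Acsl1 downstream start holds the sterol letters at -76 and CCAAT at -49. In Fasn the CCAAT letters occur on both strands at -62 and -59, sharing 2 bases, and again at -90. Pnpla3 holds 1 CCAAT and 2 GC boxes and no sterol letters. A match describes the letters and does not show that a factor binds.

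Per kilobase of exon, which allows genes to be compared with each other, Scd1 was highest in both tissues, at 2517 ± 700.1 CPM per kilobase in sham SAT and 4803 ± 1055 in sham liver (SD, n = 5 each). In sham SAT it was followed by Dgat2 at 711.5 ± 211.8, Fasn at 289.5 ± 82.4, Pnpla3 at 228.4 ± 63.0 and Acsl1 at 210.4 ± 64.4. Pnpla3 lay within 1 SD of both Fasn and Acsl1. Acsl1 lay within the SD of Fasn, but Fasn lay beyond the SD of Acsl1. In sham liver it was followed by Fasn at 412.1 ± 122.7, Fads2 at 406.4 ± 73.1 and Elovl5 at 383.1 ± 92.3, which lay within each other's SD, then by Thrsp at 271.2 ± 141.5. The lowest in sham SAT were Lpin2 at 2.26 and Acsl3 at 2.31, and in sham liver Lpin3 at 2.81 and Mogat1 at 3.05.

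The makeup of most isozyme families differed between the tissues. For 9 families with 24 of the genes, the counts per kilobase of each isozyme were expressed as a share of its family in the same library, a measure that needs no scaling between tissues. The families hold only genes among the 34, so a share is of these and not of every gene with the activity. Fads1 and Fads2 encode desaturases of different steps, so their share is a ratio of 2 steps and not a choice of isozyme. Elovl1, Elovl5 and Elovl6 lengthen different chains, so their shares also compare steps. In families of 2 isozymes 1 share was counted, and in larger families all, which leaves 20 shares. Shares of a family sum to 100% and are not independent, so the counts below describe and do not add up as separate evidence. Of the 20 shares, 19 differed between sham SAT and sham liver at an unadjusted p under 0.05 by a two-sided exact permutation test over all ways to divide the libraries, and 17 did not overlap. These 17 had p = 0.00794, the smallest this exact test can give. The exception was Elovl6, with 8.49% ± 1.20 of Elovl1, Elovl5 and Elovl6 together in sham SAT and 9.81% ± 5.79 in sham liver (exact p = 0.873).

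**Figure D2:**
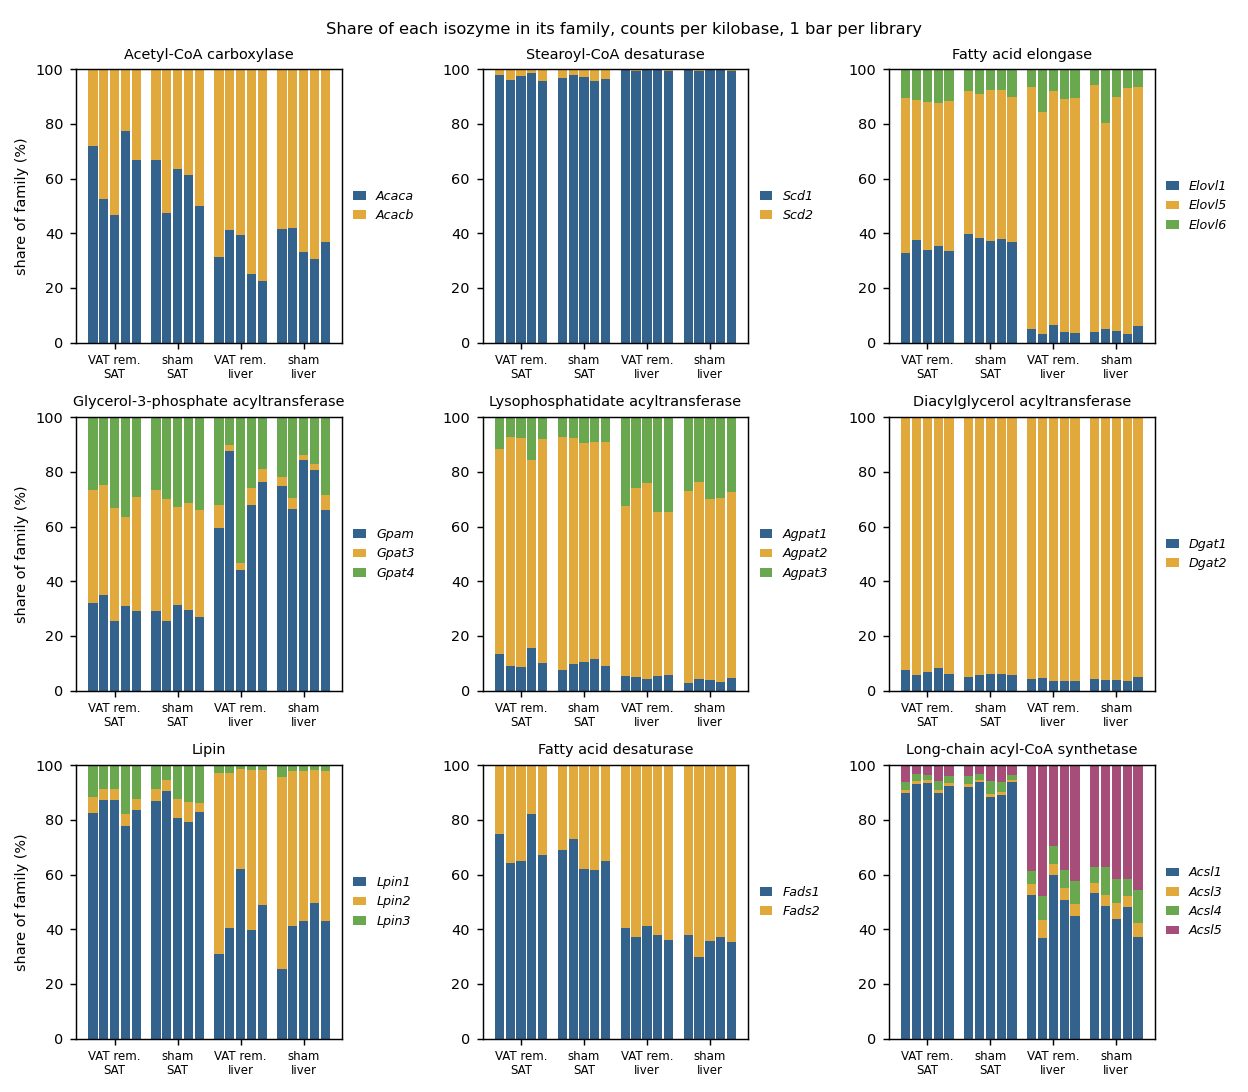
Share of each isozyme in its family (y axis, percent of the summed counts per kilobase) in every library, 1 bar per library, for VAT removed SAT, sham SAT, VAT removed liver and sham liver from left to right. The colours change between the tissues in all panels other than the stearoyl-CoA desaturases and diacylglycerol acyltransferases, where Scd1 and Dgat2 fill over 93.1% on average, and change little with surgery.

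In 4 families, the Fads1 and Fads2 pair of different steps among them, a different gene led. Among glycerol-3-phosphate acyltransferases, which start glycerolipid synthesis, Gpat3 held 40.6% ± 3.83 in sham SAT and 3.36% ± 1.44 in sham liver, while Gpam held 28.4% ± 2.31 in sham SAT and 74.5% ± 8.26 in sham liver. Gpat3 led all 5 sham SAT libraries and Gpam all 5 sham liver libraries. The lipins, phosphatidate phosphatases that make diacylglycerol, were 83.99% Lpin1 ± 4.68 in sham SAT, against 40.5% ± 8.93 in sham liver, where Lpin2 led with 57.1% ± 7.96 in 4 of 5 libraries. The difference in Lpin1 itself did not pass, and its larger share in SAT stood beside a Lpin2 level of 27.7 ± 2.87 CPM in sham SAT and 861.9 ± 265.1 CPM in sham liver.

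Fads1 held 66.1% ± 4.87 of the desaturase pair in sham SAT and 35.1% ± 3.21 in sham liver, and the pair together had 9.94 ± 1.01 CPM per kilobase in sham SAT and 626.4 ± 108.3 in sham liver. Acaca held 57.8% ± 8.63 of the carboxylases in sham SAT and 36.8% ± 4.98 in sham liver, and with all exons as length Acacb led in all 5 sham liver libraries. The leader of the carboxylases turned on the length used. Without correction for length Acaca led in sham liver too, with 50.7%, since all of its annotated exons together span 17074 bases and those of Acacb 9632. Without length correction Gpat4 led the glycerol-3-phosphate acyltransferases in sham SAT, with 38.4%, and Agpat3 led the lysophosphatidate acyltransferases in sham liver, with 57.6%. With the longest transcript as length, every leader was the same as with all exons, but Acacb then held 51.3% ± 5.37 in sham liver and led in 3 of 5 libraries.

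In 5 families, the elongases of different chains among them, 1 gene led both tissues by a different margin. Acsl1 held 91.4% ± 2.58 of the acyl-CoA synthetases in sham SAT and 46.2% ± 5.97 in sham liver, where Acsl5 held 40.7% ± 3.58. The summed level of the 4 synthetases was 228.7 ± 64.5 CPM per kilobase in sham SAT and 248.5 ± 31.4 in sham liver, within 1 SD of each other. Elovl5 held 53.5% ± 1.31 of the sum of Elovl1, Elovl5 and Elovl6 in sham SAT and 85.7% ± 6.16 in sham liver, and Elovl1 38.03% ± 1.18 in sham SAT and 4.49% ± 1.07 in sham liver. Elovl2 and Elovl3 are outside this sum, and in liver they are not small, with 0.0267 CPM of Elovl2 in sham SAT and 697.7 CPM in sham liver, and 0.193 CPM of Elovl3 in sham SAT and 82.3 CPM in sham liver. Agpat2 led the lysophosphatidate acyltransferases with 81.8% ± 2.48 in sham SAT and 68.7% ± 2.30 in sham liver, and Agpat3 held 8.46% ± 1.07 in sham SAT and 27.6% ± 2.46 in sham liver. Dgat2 held 94.3% ± 0.540 in sham SAT and 95.9% ± 0.539 in sham liver (exact permutation p = 0.0159), with overlapping groups. Scd2 held 3.13% ± 0.709 of the stearoyl-CoA desaturases in sham SAT and 0.426% ± 0.105 in sham liver. Reads shared with Scd1 make the liver share uncertain.

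The libraries taken after VAT removal, which share none of these samples, gave the same leading gene in all 9 families in each tissue. Of the 20 shares 18 differed there between SAT and liver at an exact permutation p under 0.05, and 17 did not overlap. The shares of Gpat4 and Elovl6 were the exceptions. Gpat4 held 30.0% ± 4.80 in VAT removed SAT and 28.1% ± 16.3 in VAT removed liver.

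VAT removal changed none of the 34 genes past the threshold in liver. By edgeR 0 of 34 passed, against 0% of 17078 genes tested. At an unadjusted p under 0.05 there was 1, which was lower, against 9.9% of all genes tested, 4.68% higher and 5.22% lower. DESeq2 and limma-voom also called 0 of the 34. Outside the 34, limma-voom called a few liver genes and DESeq2 many, counted in the section on processing below. The 0% by edgeR is thus not their background. In value 21 of 34 were higher and 13 lower, with a median log2 difference (VAT removed minus sham) of 0.06, against 0.01 over all genes tested. No gene had groups that did not overlap, against 2.48% of all genes tested, 0.814% higher and 1.67% lower. The same test on simulated counts of this design recovered 73.1% of liver genes changed 2-fold and 37.3% of those changed 1.5-fold. Differences of that smaller size were thus often not detectable. The changed genes were drawn at random from expressed genes at large. In 1 simulation 67 genes were changed 1.5-fold, 67 2-fold and 66 4-fold. Many changed genes ease the adjusted threshold, and 0% of genes passed in the data, so a lone change may be recovered less often. The 34 genes varied more between livers than most genes did, so recovery among them may be lower.

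**Figure D3:**
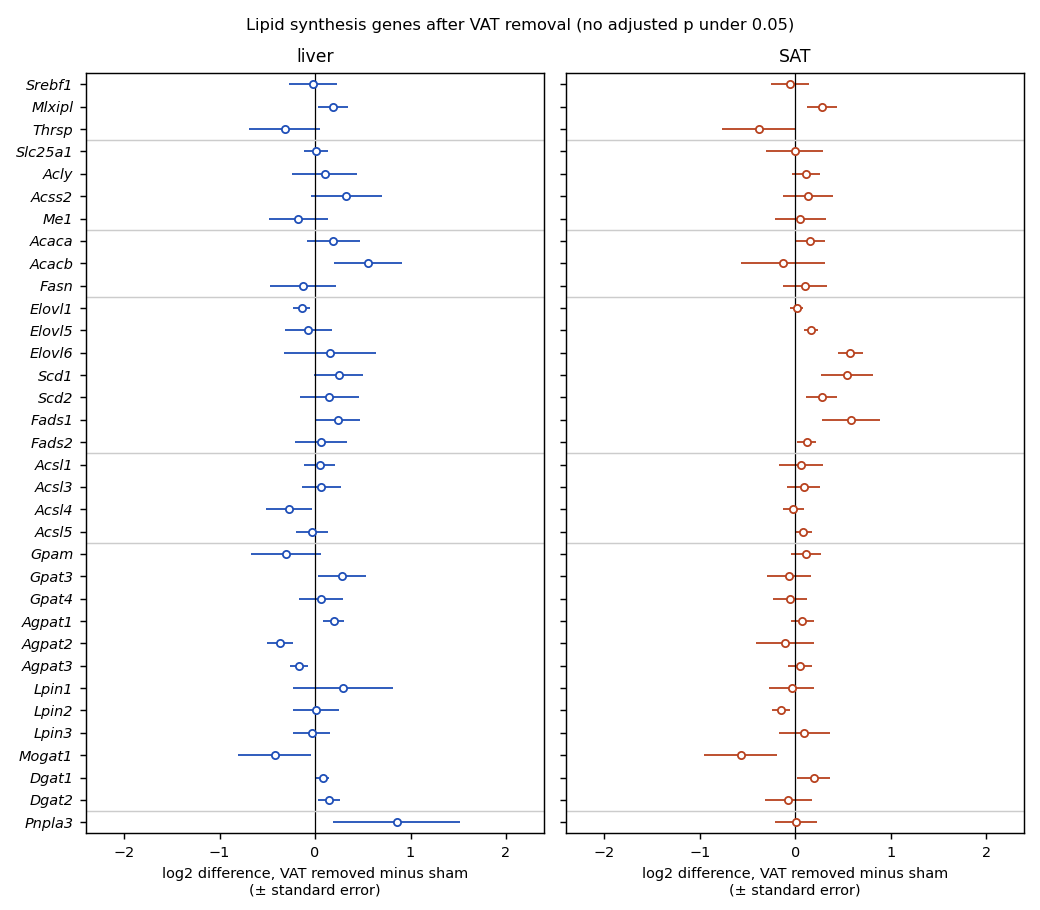
Log2 difference of each gene between VAT removed and sham (x axis, with the standard error from the fit of 5 libraries each) in liver on the left and SAT on the right, with genes grouped by role as rows. All points lie between -0.57 and 0.86, and the widest error belongs to Pnpla3 in liver.

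The lipogenic factors and their main targets overlapped between the liver groups. Srebf1 had 912.6, 854.5, 1411, 738.5 and 540.9 CPM in VAT removed liver, against the sham liver range of 696.6 to 1220 CPM (log2 difference -0.02 ± 0.25). Mlxipl had 594.3, 481.7, 803.8, 527.7 and 502.5 CPM in VAT removed liver, against 412.7 to 614.6 CPM in sham liver (0.19 ± 0.16). Library 3 was the highest of all livers in both. In Fasn it was the lowest, where the levels were 2515, 7611, 1908, 3789 and 4786 CPM in VAT removed liver, against 2633 to 6136 CPM in sham liver (-0.13 ± 0.35). Scd1 had 16382, 45781, 20811, 31325 and 24332 CPM in VAT removed liver, against 18863 to 31913 CPM in sham liver (0.25 ± 0.25), with library 2 the highest and library 1 the lowest of all livers.

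The liver genes with the smallest p are given as values only. Agpat2 had 174.3, 240.7, 249.6, 165.4 and 179.9 CPM in VAT removed liver, against 302.4, 282.0, 241.2, 268.4 and 222.7 CPM in sham liver. All 5 VAT removed libraries lay below the sham mean, the groups overlapped, and the log2 difference was -0.37 ± 0.14 (unadjusted p 0.019, adjusted p 0.409 by edgeR). Agpat3 averaged 340.3 ± 27.7 CPM in VAT removed liver and 385.6 ± 47.3 CPM in sham liver, and Elovl1 47.2 ± 6.15 CPM in VAT removed liver and 52.4 ± 3.45 CPM in sham liver. In the other direction, Agpat1 averaged 22.3 ± 1.47 CPM in VAT removed liver and 19.6 ± 3.20 CPM in sham liver, and Acacb 703.3 ± 343.6 CPM in VAT removed liver and 481.6 ± 144.9 CPM in sham liver. Pnpla3 had 12.6, 67.7, 2.93, 23.2 and 36.4 CPM in VAT removed liver, against 6.35, 24.9, 24.0, 13.4 and 10.5 CPM in sham liver. Its highest and its lowest liver library both had VAT removed, and the log2 difference was 0.86 ± 0.66.

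Livers differed more from each other in these genes than in most. The highest of the 10 livers exceeded the lowest by a median of 2.68-fold over the 34 genes, against 1.44-fold over the 9063 genes that averaged 10 CPM or more. In SAT the medians were 1.93-fold, against 1.55-fold over 9119 genes, and 25 of the 34 genes ranged more widely in liver than in SAT. Pnpla3 ranged 23.1-fold in liver. VAT removed liver library 2 was the highest liver in 13 of the 34 genes, Fasn, Acly, Acaca, Me1, Elovl6, Scd1 and Pnpla3 among them, and in 13.6% of all genes tested. VAT removed liver library 3 was the lowest in 19 of the 34 and in 16.0% of all genes tested, while it was the highest in Srebf1, Mlxipl, Gpat4 and Lpin1. This library also had the fewest counts, 20307159. Without it the members' median log2 difference was 0.13 and still none of the 34 passed, while 16 genes higher and 37 lower were called among all genes tested.

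**Figure D4:**
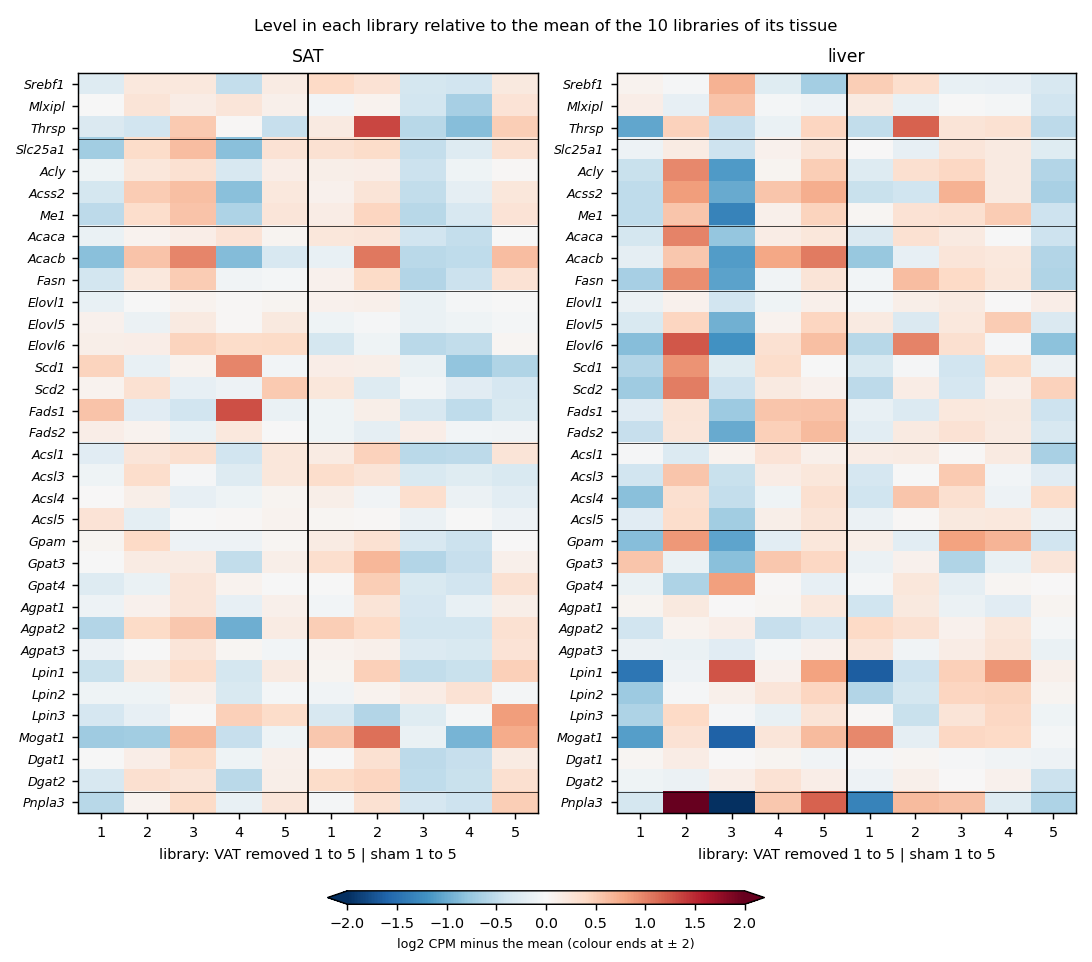
Log2 CPM of the 34 genes (rows, grouped by role) in each library relative to the mean of the 10 libraries of its tissue, SAT on the left and liver on the right, with VAT removed libraries 1 to 5 before sham libraries 1 to 5. Red is above and blue below the mean, and the colour ends at 2 in either direction. VAT removed liver library 3 is blue in most rows and red for Srebf1, Mlxipl, Gpat4 and Lpin1, and sham SAT libraries 3 and 4 are blue in most rows.

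In SAT also none of the 34 genes passed by edgeR, against 0% of 18530 genes tested. At an unadjusted p under 0.05 there were 2, Elovl6 and Elovl5, both higher, against 10.6% of all genes tested, 4.38% higher and 6.27% lower. limma-voom called 0 and DESeq2 called 1, Elovl6. DESeq2 also called many genes outside the 34 in SAT, counted in the section on processing below, so the 0% by edgeR is not its background. In value 22 of 34 were higher and 12 lower, with a median log2 difference of 0.07, against -0.002 over all genes tested. Without sham SAT libraries 3 and 4, those with lymphocyte markers and low adipocyte markers, the members' median was -0.07. The part of these markers in the SAT values was not tested further. The simulated test recovered 46.3% of SAT genes changed 2-fold and 8.96% of those changed 1.5-fold, with changed genes again drawn from expressed genes at large. They were as many as in the liver simulation, so the same limit holds for a lone change.

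Elovl6, on chromosome 3 (129532355 to 129638495, plus strand), had the smallest p of the 34 genes in SAT. It had 22.7, 23.0, 28.4, 27.1 and 27.3 CPM in VAT removed SAT, against 16.4, 19.7, 14.4, 15.0 and 21.6 CPM in sham SAT. Every VAT removed library lay above every sham library, which held for 1 of the 34 genes and 1.48% of all genes tested, 0.696% higher and 0.788% lower. The log2 difference was 0.58 ± 0.13, with an unadjusted p of 0.000968 and an adjusted p of 0.431 by edgeR, and an adjusted p of 0.0167 by DESeq2. Over all 21 alternatives, DESeq2 included, the adjusted p lay between 0.0167 and 0.818. On CPM by total counts the groups overlapped. Without sham SAT libraries 3 and 4 the log2 difference was 0.43 ± 0.12.

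Its share of the sum of Elovl1, Elovl5 and Elovl6, which does not rest on scaling between libraries, was 10.6%, 11.2%, 11.8%, 12.1% and 11.4% in VAT removed SAT, against 7.91%, 9.14%, 7.56%, 7.55% and 10.3% in sham SAT. These groups did not overlap either (exact permutation p = 0.00794), and without sham SAT libraries 3 and 4 the exact p was 0.0357. The same counts entered the fit, so this is no separate evidence. Elovl1 held 34.6% ± 1.87 in VAT removed SAT and 38.03% ± 1.18 in sham SAT (exact permutation p = 0.0238). These were the 2 of 20 shares under 0.05 in SAT. In liver it was 1 of 20, Agpat1, with 5.13% ± 0.588 in VAT removed liver and 3.68% ± 0.838 in sham liver (exact permutation p = 0.0238).

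**Figure D5:**
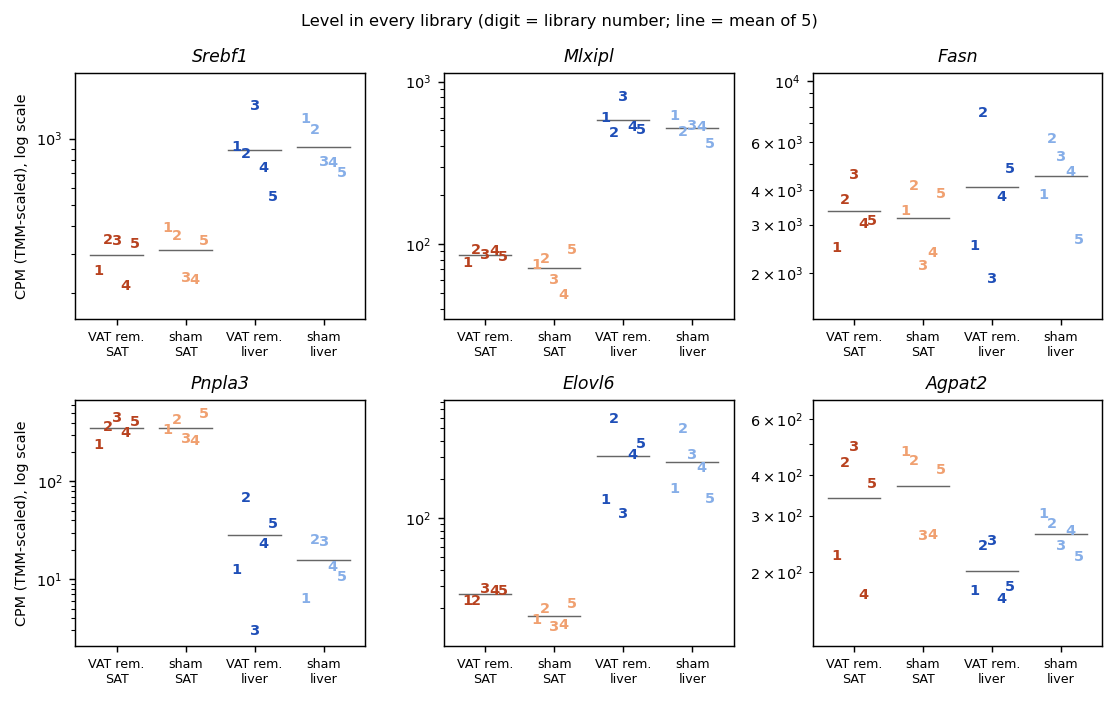
Level of 6 genes (y axis, CPM on a log scale that differs between panels) in every library of the 4 groups, where each digit is the library number and each line the mean of 5. In Elovl6 the VAT removed SAT libraries, from 22.7 to 28.4 CPM, all lie above the sham SAT libraries, from 14.4 to 21.6 CPM, and in the other panels the surgery groups of a tissue overlap.

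The other SAT genes named by their p are also given as values. Elovl5 averaged 66.3 ± 5.85 CPM in VAT removed SAT and 59.7 ± 1.68 CPM in sham SAT. Scd1 had 19390, 12830, 14908, 27836 and 13681 CPM in VAT removed SAT, against 15608, 15432, 12999, 8196 and 9327 CPM in sham SAT. The groups overlapped, with a log2 difference of 0.54 ± 0.27 (adjusted p 0.502 by edgeR). Fads1 had 54.1, 31.3, 27.9, 89.1 and 33.3 CPM in VAT removed SAT, against 25.6 to 39.8 CPM in sham SAT, with libraries 1 and 4 high (0.58 ± 0.30, adjusted p 0.515 by edgeR). Lpin2 averaged 24.7 ± 2.42 CPM in VAT removed SAT and 27.7 ± 2.87 CPM in sham SAT. Mogat1, which makes diacylglycerol from monoacylglycerol, averaged 3.57 ± 1.60 CPM in VAT removed SAT and 5.36 ± 2.54 CPM in sham SAT. Thrsp averaged 116.6 ± 36.0 CPM in VAT removed SAT and 153.6 ± 96.0 CPM in sham SAT, and sham SAT library 2 was the highest with 308.3 CPM.

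Srebf1, Mlxipl and Fasn overlapped between the SAT groups. Srebf1 had 250.2, 345.4, 344.0, 213.9 and 332.5 CPM in VAT removed SAT, against 229.0 to 393.6 CPM in sham SAT (log2 difference -0.06 ± 0.20). Mlxipl had 76.6, 91.8, 85.1, 91.1 and 82.9 CPM in VAT removed SAT, against 48.6 to 92.5 CPM in sham SAT (0.28 ± 0.16). Fasn had 2459, 3682, 4530, 3012 and 3101 CPM in VAT removed SAT, against 2111 to 4139 CPM in sham SAT (0.10 ± 0.23). In Mlxipl the 2 lowest SAT libraries were sham libraries 3 and 4.

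Whether surgery acted differently in the 2 tissues was tested for each gene as the SAT response minus the liver response. None of the 34 passed by edgeR, DESeq2 or limma-voom, against 0% of 19954 genes tested by edgeR. DESeq2 called genes outside the 34 here too, counted below, so the 0% is not its background. By edgeR none of the 34 had an unadjusted p under 0.05, against 10.1% of all genes tested, 3.61% higher and 6.51% lower. The values furthest from 0 by p were 0.21 ± 0.16 for Agpat3, 0.15 ± 0.12 for Elovl1 and 0.41 ± 0.43 for Gpam on the positive side. On the negative side they were -0.86 ± 0.72 for Pnpla3, -0.68 ± 0.60 for Acacb and -0.36 ± 0.36 for Gpat3. For Elovl6 the difference was 0.41 ± 0.52 (adjusted p 0.833 by edgeR), so its response in SAT was not shown to differ from that in liver.

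A list of 40 other genes of the pathway was read the same way. In liver 39 were tested and none passed by edgeR. The smallest p in the list belonged to Insig2, which holds SREBP in the endoplasmic reticulum. It had 140.4, 216.7, 121.9, 132.2 and 187.3 CPM in VAT removed liver, against 387.7, 243.3, 265.6, 315.4 and 271.7 CPM in sham liver, and no VAT removed library reached a sham library. The log2 difference was -0.89 ± 0.17 (unadjusted p 0.00028, adjusted p 0.211 by edgeR). Hacd2, a dehydratase of elongation, followed at -0.18 ± 0.07, and Nr1h2 and Usf2, transcription factors of lipid metabolism, were positive at 0.19 ± 0.07 and 0.19 ± 0.10. In SAT 38 were tested and none passed, with Tecr, the last reductase of elongation, at 0.48 ± 0.15, G6pdx, which makes NADPH, at 0.40 ± 0.15, Hacd3 at -0.19 ± 0.08 and Acsbg1, an acyl-CoA synthetase, at -0.94 ± 0.42. For the difference of the responses all 40 were tested, none passed, and Insig2 at 0.93 ± 0.25 and Usf2 at -0.25 ± 0.12 had the smallest p, followed by Acsbg1 at -1.38 ± 0.69 and Tecr at 0.38 ± 0.20.

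Between sham SAT and sham liver 38 of these 40 passed, 12 higher and 26 lower, against 65% of all genes tested, 35.3% higher and 29.7% lower. G6pdx was higher in SAT by 3.34 ± 0.19 on the log2 scale and Agpat4 by 1.86 ± 0.12. The difference of Hacd3, another dehydratase of elongation, was -2.91 ± 0.08. Elovl2, an elongase of very long polyunsaturated chains, had between 0 and 4 counts per library in sham SAT, against 561.1 to 840.0 CPM in sham liver.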

How the data were processed

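Total RNA of 20 liver and SAT samples, 4 groups of 5, was sequenced after ribosomal RNA removal, per the labels. The submitters' processing notes name bcl2fastq, STAR 2.5.1a, featureCounts 1.46 of Subread and the GRCm38 build. The annotation, strand option and rule for multimapping reads were not given in the sources used here. Close paralogs and overlapping genes may therefore share reads, and 16 of the 34 genes share exon bases with another gene. The authors deposited raw counts per gene, not normalized.

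Of 40757 entries, 317 exact repeats were dropped. Groups came from the sample titles. Each comparison was fitted over all genes with edgeR 4.0.16 in R 4.3.3 (filterByExpr, TMM factors, robust quasi-likelihood test). P-values were adjusted by Benjamini and Hochberg over all genes tested, with a threshold of 0.05. Surgery was tested on the 10 libraries of a tissue, tissue on the 10 sham libraries, and the difference of responses on all 20. Printed levels are CPM with TMM factors over 20 libraries, so they can differ slightly from the scale of a fit. Lengths are all annotated exon bases (GENCODE M21). Shares had two-sided exact permutation tests (scipy 1.17.1), unadjusted.

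The fits were tested on simulated counts, with changed genes drawn at random from expressed genes and not from the 34. Many genes were changed at once, up to 4-fold, which eases the adjusted threshold. At 2-fold, 64.2% of changed genes were recovered in the tissue comparison and 35.8% in the difference of responses. Named genes are those called, or with none called the 3 smallest p in each direction, with Fasn, Scd1, Srebf1, Mlxipl and the isozyme families, and in the list of 40 the 2 smallest p each way. Fads1 in SAT was added after its values were seen. The 34 genes and all lists were chosen with earlier results of these data known. Alternatives were DESeq2 1.42.0, limma-voom (limma 3.58.1), other normalizations, filters and lengths, the replicate block and leaving out libraries.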

Additional observations from a re-analysis of the deposited data

Results flagged for a closer look

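In 136 sets of 5 libraries, 1 for each of the 34 genes in each group, 2 held a library far from the other 4 on the log2 scale. Chance alone gives such a library in about 1 set in 20. Gpat3 in VAT removed SAT was lowest in library 4, at 49.6 CPM, against 69.4 to 77.9 CPM in the other 4. The same library was the lowest SAT library in 8 of the 34 genes and in 8.91% of all genes tested. It was the highest in 4 of the 34 and in 10.2% of all genes tested. Sham SAT libraries 3 and 4 were each the lowest in 9 of the 34, and in 15.8% and 16.6% of all genes tested. Acsl1 in sham liver was lowest in library 5, at 769.9 CPM, against 1231 to 1366 CPM in the other 4.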

How the results depend on the processing

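Leaving out single libraries, other normalizations, filters and tools changed no call among the 34 genes in the surgery comparisons, other than Elovl6 in SAT under DESeq2 (1 gene called). Among all genes the liver counts moved from 0 called either way to 1 higher and 2 lower without a filter, with 1 CPM in 5 libraries or with limma-voom, to 89 and 134 with DESeq2, to 16 and 11 with 1 fit of all libraries, and to 16 and 37 without VAT removed liver library 3. Leaving out 1 library gave 0 to 16 higher and 0 to 37 lower in liver, 0 to 1 lower in SAT, and 0 to 3 higher and 0 to 1 lower for the difference of responses (3 higher without VAT removed liver library 3). DESeq2 called 51 and 106 in SAT and 31 and 93 for the difference of responses. On total-count CPM 0 of the 34 genes had SAT groups that did not overlap. The cause of these moves was not tested. The members' median ran from -0.06 to 0.13 in liver and from -0.02 to 0.13 in SAT without 1 library. It was -0.13 in SAT without sham libraries 3 and 4 and VAT removed library 2, an alternative chosen after seeing the data, as were total-count CPM and the repeats of the shares by surgery. Of those 3 shares, Elovl1 in SAT did not pass without sham SAT libraries 3 and 4 (exact p 0.0714).

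In the tissue comparison 8 to 9 genes stayed higher and 19 to 20 lower. Upper quartile scaling moved the median of all genes from 0.11 to 0.21, and no filter to 0.28, with 9 higher and 20 lower under each. The members' median was -0.82 without sham SAT libraries 3 and 4 and -1.31 without the 20 most abundant genes of each tissue, which drops Scd1 and Fasn. Of the isozyme shares, Elovl6 reversed to 1.18 percentage points (SAT minus liver) in the VAT removed libraries and to 1.17 without sham liver library 2, with a range of -2.31 to 1.17 without 1 library. Gpat4 missed the threshold at 1.89 points in the VAT removed libraries, at 8.09 without sham SAT libraries 3 and 4, and in 6 of 10 repeats that left out 1 library, whose range was 6.83 to 10.7. Dgat1 missed it at 1.32 without sham SAT libraries 3 and 4.

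With library number as a replicate block 0 genes were called in the surgery comparisons, and 5793 higher and 5192 lower between the tissues, 8 and 20 of them among the 34 genes. Libraries of equal number correlated between -0.17 and 0.10 across the sham tissues, between 0.04 and 0.10 across the VAT removed tissues, where every library correlated best with its own number, and between -0.26 and 0.36 across surgery in SAT. Across surgery in liver, numbers 1, 2, 4 and 5 correlated at 0.127, 0.169, 0.173 and 0.191, each best with its own number, and number 3 at -0.0671. Since not every pair of any comparison exceeded 0.1, the numbers were not taken to pair the samples, which for liver rests on number 3. Across the VAT removed tissues it rests on the 0.1 limit alone. Whether equal numbers there mark the same mouse was not tested, and the main fits treated those libraries as separate. Counts per library reached down to 20 for Mogat1.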

Other observations

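Elovl3, an elongase of the wider pathway list and chosen after its values were seen, split the livers after VAT removal. It had 4.25, 5.56, 94.7, 4.12 and 6.25 CPM in VAT removed liver, against 115.4, 69.4, 45.5, 102.6 and 78.5 CPM in sham liver. In 4 of 5 VAT removed livers it lay below every sham liver, and in library 3, the liver lowest in most lipogenic genes, it lay inside the sham range. The log2 difference over all libraries was -1.84 ± 0.93 and did not pass (adjusted p 0.558 by edgeR). In sham SAT Elovl3 had between 2 and 14 counts per library.

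The counts listed for Scd3, a gene next to Scd1 in the same cluster, were between 0.351% and 0.453% of the Scd1 counts in each of the 20 libraries of both tissues, while those of Scd2 ran from 1.55% to 4.83% in SAT and from 0.371% to 0.667% in liver. Scd4 stood between 0.0547% and 0.219% of Scd1. In liver the Scd2 counts thus lay near those of Scd3. No source used here says how reads shared by these paralogs were counted. The Scd3 and Scd4 values, and the Scd2 values in liver, are therefore uncertain. The part of shared reads in these counts and in those of Scd1 was not tested.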
